A study of Mus musculus with 8 samples.

Results

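The Dlx genes encode homeodomain transcription factors, and in the mouse 6 of them lie as 3 neighbouring pairs, Dlx1 with Dlx2 on chromosome 2, Dlx5 with Dlx6 on chromosome 6 and Dlx3 with Dlx4 on chromosome 11. H3K27me3 over these pairs was taken from the peaks that overlapped a fixed window around each pair, 71355000 to 71395000 on chromosome 2 (40 kb), 6805000 to 6890000 on chromosome 6 (85 kb) and 94970000 to 95018000 on chromosome 11 (48 kb), in the mm9 coordinates of the peak lists. The windows held 85 of the 208616 peaks called in 5 libraries, of which 6 lay at Dlx1 and Dlx2, 44 at Dlx5 and Dlx6 and 35 at Dlx3 and Dlx4. The windows were set by position alone. An mm9 gene annotation was not used here, so peaks are placed within a window and not against the exons or start sites of its genes.

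H3K27me3 is the trimethylated form of lysine 27 of histone H3. It is deposited by Polycomb repressive complex 2 (PRC2), which keeps developmental regulators silent in the cell types that do not use them, and it often spreads over whole clusters of homeobox genes. Dlx1 and Dlx2 are the members best known for the ventral forebrain, where they promote the fate and migration of inhibitory interneurons. Dlx5 and Dlx6 act with them there and also pattern the jaws, the limbs and bone, and an antisense transcript with enhancer function runs through that pair. Dlx3 and Dlx4 are known from skin, hair, teeth, bone and placenta, with no established role in the cortex.

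The mark had been profiled by chromatin immunoprecipitation sequencing at 2 stages of gliomagenesis. AstroEGFR cells (replicates 1 and 3) were astrocytes from the cerebral cortex of C57BL/6 mice at postnatal day 5 that lacked p16 and p19, the products of Ink4a/Arf, and carried a retroviral vector for human EGFRvIII, a constitutively active form of the epidermal growth factor receptor. Tumour cultures, named PT (replicates 1, 3 and 4), held propagating cells of gliomas that such C57BL/6 cells had formed in CD1 Nude mice. The 5 cultures were used at a passage below 10, so both stages are cultured populations and share the Ink4a/Arf loss and the receptor. The study describes a medium with serum for the astrocytes, and one with growth factors on laminin for the tumour cells. Culture conditions thus changed with stage, and their effects cannot be told apart from those of stage here. The study names the AstroEGFR replicates as batches of astrocytes and describes tumours grown from its batches, while the sources used here do not say from which batch each of the PT libraries 1, 3 and 4 came. A further 3 input libraries were not analysed here, and cell type markers could not be checked, as no expression values were used here.

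The lists differed widely in length, from 3722 peaks in AstroEGFR 3 to 66279 in PT 4, and covered from 0.129% to 3.33% of chromosomes 1 to 19 and X. The number of reads is unknown. The list of AstroEGFR 3 stood apart as the shortest, and AstroEGFR 3 and PT 3 further differed from the others in holding 0 peaks on unplaced sequences, so values are also given within these sets of lists. Where a window held no peak, nothing in it passed the threshold used for the list, and a weaker mark may have gone uncalled.

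PRC2 is known to occupy CpG-rich promoters, and the promoter of Dlx2 is shown as that of a gene from the pair with the fewest peaks. RefSeq promoter sequences (GRCm38.p6) were matched for 2 of the 6 genes, Dlx1 and Dlx2. The 250 bases upstream of the Dlx2 start site, on the minus strand at chr2:71546755-71547004 of that build, are shown with each CpG in capitals. These positions are on another build than the peaks and cannot be set against them.
Dlx2: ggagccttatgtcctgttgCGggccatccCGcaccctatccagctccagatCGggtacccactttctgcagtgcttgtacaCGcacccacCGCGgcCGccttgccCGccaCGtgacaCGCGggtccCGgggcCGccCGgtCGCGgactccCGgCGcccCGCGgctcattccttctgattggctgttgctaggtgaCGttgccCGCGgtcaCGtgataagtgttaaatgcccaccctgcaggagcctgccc
The stretch held 24 CpG at a GC content of 66.4%, and 12.0% of 32851 RefSeq promoters had at least as many. The corresponding bases of Dlx1 held 22 CpG at a GC content of 68.0%, a number reached by 14.8% of promoters, whereas the median promoter held 6. Both genes of the sparsely marked pair thus had promoters among the CpG-rich ones.

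Dlx1 and Dlx2, the interneuron regulators, had no H3K27me3 peak in the astrocytes and the fewest peaks of the 3 pairs in the tumour cultures. AstroEGFR 1 and AstroEGFR 3 held 0 peaks in the window, PT 1 held 2, PT 3 held 1 and PT 4 held 3. In the tumour cultures, peaks covered 2330 bp (PT 1, 5.82% of the window), 602 bp (PT 3, 1.50%) and 5126 bp (PT 4, 12.8%), and 85.7% of its bases lay in no peak of any list. Every PT library was thus above both AstroEGFR libraries, by a small amount and with a wide spread among tumours. The pattern of a peak in every PT list and in no AstroEGFR list was found in 3.04% of all 40 kb tiles laid along the chromosomes. A covered share higher in every PT list than in both AstroEGFR lists was found in 5.68% of those tiles, or in 17.5% of the tiles with a peak in any list.

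The few peaks at Dlx1 and Dlx2 did not fall on a common position. The strongest was that of PT 4, 71386987 to 71390925, 3939 bp wide, with a score of 1316 that stood at percentile 95.4 of its list. PT 1 had a peak inside it, 71387690 to 71389307, with a score of 415 at percentile 81.7. The peak of PT 3, 71377330 to 71377931, lay apart from both and had a score of 97.4 at percentile 39.3. All covered bases of PT 1 lay within peaks of PT 4, while no base was shared by the 3 PT lists. The other 3 peaks of the window were between 590 and 712 bp wide and stood at percentile 16.8 or lower.

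The surroundings of Dlx1 and Dlx2 were equally bare in the astrocytes. The nearest AstroEGFR 1 peak lay 858021 bp below and 960716 bp above the window, and those of AstroEGFR 3 lay 1040385 and 1713087 bp away. In the 50 kb above the window, peaks covered 4.91% in PT 1, 3.33% in PT 3 and 19.5% in PT 4, and in the 50 kb below it they covered 0% in all 5 lists. The next peak lay 2119 bp above the window in PT 1 and 2149 bp above it in PT 4, on the side where Itga6, an integrin subunit, follows Dlx2 as the next protein-coding gene in RefSeq gene order.

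**Figure D1:**
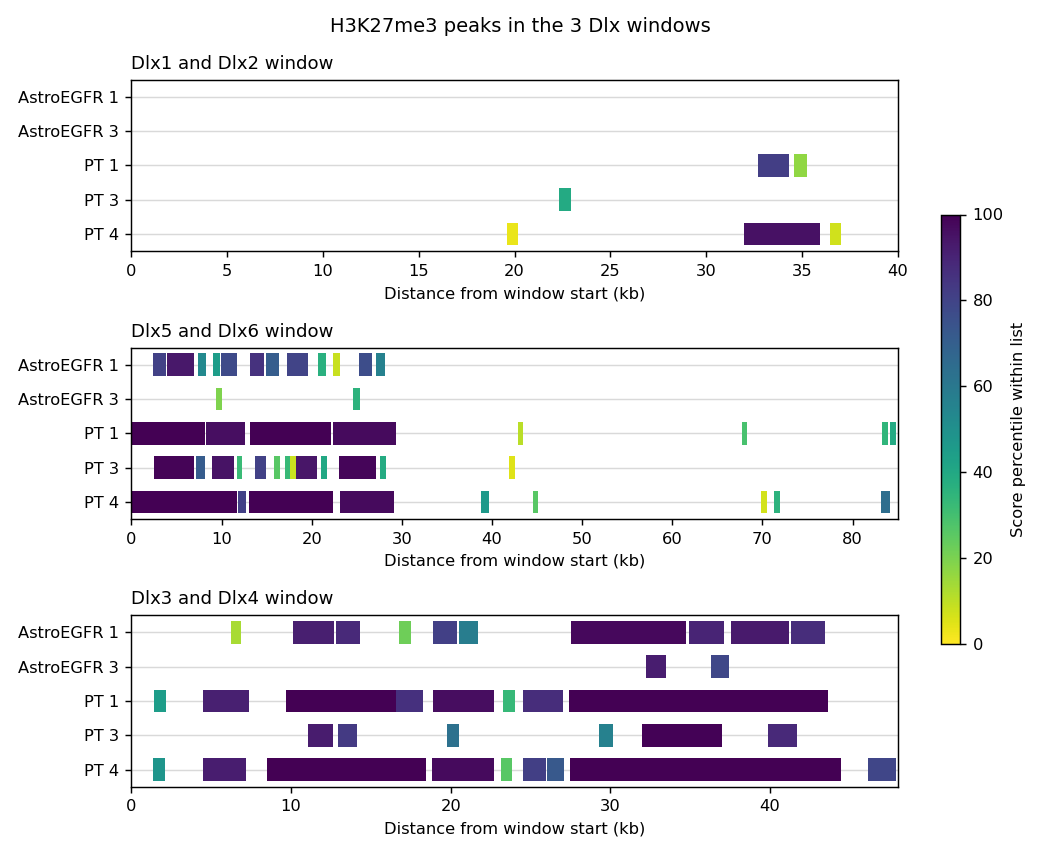
Peaks of the 5 libraries in each Dlx window. The x axis is the distance from the window start in kb, each row is a library, each block is a peak (clipped at the window ends) and the colour gives the percentile of its score within its own list. The Dlx1 and Dlx2 window is empty in both AstroEGFR libraries, the Dlx5 and Dlx6 peaks crowd into the first 30 kb, and the Dlx3 and Dlx4 peaks run through most of the window in AstroEGFR 1, PT 1 and PT 4.

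Dlx5 and Dlx6, the pair shared by forebrain, jaw and limb, carried H3K27me3 in every library. Peaks covered 17606 bp of the window in AstroEGFR 1 and 1451 bp in AstroEGFR 3. In the tumour cultures they covered 31051 bp (PT 1), 19639 bp (PT 3) and 31752 bp (PT 4). All PT libraries were above both AstroEGFR libraries, although PT 3 exceeded AstroEGFR 1 by less than PT 1 and PT 4 exceeded PT 3. A peak in all 5 lists was found in 5.01% of all 85 kb tiles, and a covered share higher in every PT list than in both AstroEGFR lists in 9.03% of them, or in 20.8% of the tiles with a peak in any list.

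The marked part of this window was a block of about 30 kb at its lower end. In the first 30 kb, peaks covered 58.7% in AstroEGFR 1 and 4.84% in AstroEGFR 3, and 95.3%, 63.5% and 93.1% in PT 1, PT 3 and PT 4. This stretch held 100% of the covered bases of both AstroEGFR lists and 92.1%, 97.0% and 88.0% of those of PT 1, PT 3 and PT 4. With peaks joined across gaps of up to 5 kb, the block ran from 6807344 to 6833129 in AstroEGFR 1 and from 6807507 to 6833228 in PT 3, so that both of its ends nearly coincided in an astrocyte and a tumour library. In PT 1 it ran from 6798201 to 6834353 and in PT 4 from 6800299 to 6834125, beyond the lower window end. The upper ends of the block thus lay close together in these 4 libraries, and the lower end reached further in PT 1 and PT 4.

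Within the block the libraries differed in how continuous the mark was. AstroEGFR 1 had 12 peaks there, the widest 3011 bp, and PT 3 also had 12, the widest 4390 bp. In PT 1 the block consisted of 4 window peaks, of which the widest, 6804008 to 6813147, spanned 9140 bp. In PT 4 the widest peak, 6802701 to 6816709, spanned 14009 bp, and 164 peaks of that list were wider. The 2 peaks of AstroEGFR 3, 6814396 to 6815068 and 6829556 to 6830333, lay inside the block, and 100% of their bases were covered in each PT list. Bases in peaks of all 5 lists amounted to 795 bp, in 3 segments inside those peaks.

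The rest of the window, from 30 kb on, held 10 peaks and 0 of them came from AstroEGFR libraries. PT 1 had 4, PT 3 had 1 and PT 4 had 5. They were narrow, from 583 to 977 bp, and weak, from percentile 4.85 to 64.4 of their lists. They overlapped between lists in a single place, at the upper end, where the PT 4 peak 6888180 to 6889156 met both PT 1 peaks. In the whole lists, AstroEGFR 1 and AstroEGFR 3 gave 34021 and 3722 of the 208616 peaks. Whether 0 of 10 departs from this was not tested.

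Dlx3 and Dlx4, the pair of skin and placenta, were the most heavily covered. Peaks covered 23330 bp of the window in AstroEGFR 1 and 2411 bp in AstroEGFR 3. In the tumour cultures they covered 35464 bp (PT 1), 11250 bp (PT 3) and 39208 bp (PT 4). The stages overlapped here, since PT 3 lay below AstroEGFR 1. A peak in all 5 lists was found in 3.01% of all 48 kb tiles. The covered share of the window was 48.6% in AstroEGFR 1 and 5.02% in AstroEGFR 3, and 73.9%, 23.4% and 81.7% in PT 1, PT 3 and PT 4, and 17.3% of its bases were in no peak of any list.

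The widest peak of each library lay in the upper part of this window. In PT 1 and PT 4 its score was tied with that of a peak in the lower part. The widest AstroEGFR 1 peak ran from 94997561 to 95004732 (7172 bp, score 1406). A single peak covered the upper part in PT 1, 94997407 to 95013665, and in PT 4, 94997450 to 95014459, and both had a score of 3100. This score is shared by 1110 peaks of PT 1 and 1035 of PT 4, with 66 and 47 peaks above it. The rank of the tied peaks thus lies anywhere from percentile 98.2 to 99.9 in PT 1 and from 98.4 to 99.9 in PT 4. The single peaks of the upper part were 16259 and 17010 bp wide, with 143 and 104 wider peaks in their lists. PT 3 had its best peak inside the same stretch, 95001981 to 95007014, with a score of 1675. Both AstroEGFR 3 peaks fell there too, 95002218 to 95003489 with a score of 218 and 95006302 to 95007440 with a score of 140. The widest peak of each of the 5 libraries in the window hence lay over the same stretch, and the 1985 bp in peaks of all 5 lists ran from 95002218 to 95003489 and from 95006302 to 95007014.

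The lower part of the window formed a less continuous group of peaks. AstroEGFR 1 had 6 peaks between 94976237 and 94991725, with 52.7% of that span covered. PT 3 had 3 peaks, between 94981052 and 94990550, and AstroEGFR 3 had none. In PT 1 and PT 4, peaks of 6865 bp (94979692 to 94986556) and 9914 bp (94978514 to 94988427) with a score of 3100 lay in it. In RefSeq gene order Dlx3 precedes Dlx4 with rising coordinate, between Itga3 below and Tac4 above. Which of the genes lies under which group of peaks was not determined.

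Peaks were not limited to the Dlx3 and Dlx4 window. In the 50 kb above it, peaks covered 37.1% in AstroEGFR 1, 69.5% in PT 1 and 70.7% in PT 4, against 0% in AstroEGFR 3 and 2.94% in PT 3. In PT 4, peaks joined across gaps of up to 5 kb made a run from 94969200 to 95109382, 140 kb long, with 76.5% of it covered by 41 peaks. Below the window, the 50 kb next to it were covered by 0% in AstroEGFR 1, AstroEGFR 3 and PT 1, 1.73% in PT 3 and 7.60% in PT 4. By contrast, above the Dlx5 and Dlx6 window peaks covered 0% of the next 50 kb in 4 lists and 1.24% in PT 4. Above the Dlx5 and Dlx6 block there were therefore only scattered narrow PT peaks up to the window end, and almost none in the next 50 kb. Peaks were dense above the Dlx3 and Dlx4 window too in AstroEGFR 1, PT 1 and PT 4.

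**Figure D2:**
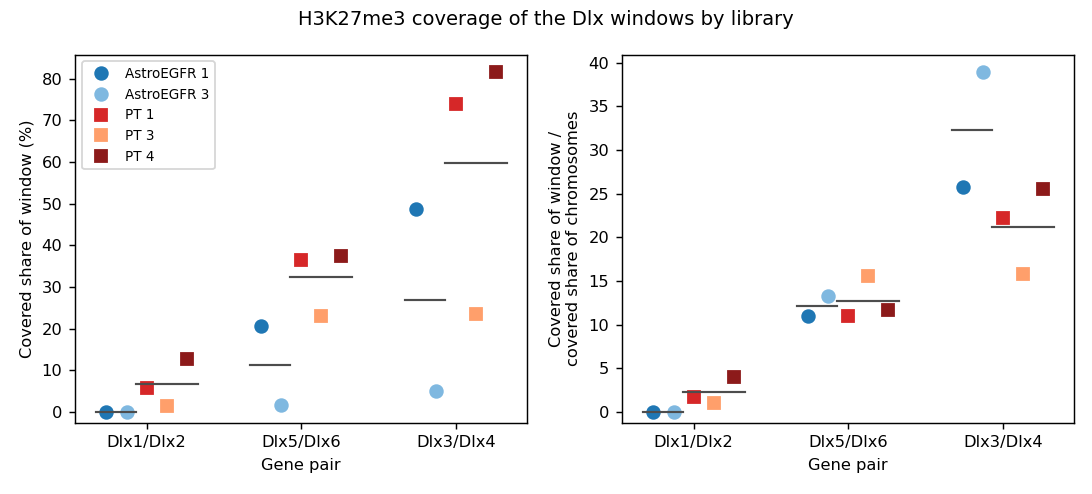
Coverage of the 3 windows in each library (circles AstroEGFR, squares PT, lines the group means). On the left the y axis is the covered share of the window in percent, and on the right that share divided by the covered share of chromosomes 1 to 19 and X in the same list. PT means are above AstroEGFR means for each pair on the left, while on the right both AstroEGFR points lie above all PT points at Dlx3 and Dlx4, where the scale ends at 30.1 for PT 1 and 31.2 for PT 4.

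To ask whether the mark at the pairs differed between stages, covered length was compared with the library as the unit. At Dlx5 and Dlx6 it was 27.5 ± 6.80 kb in PT (SD, n = 3) and 9.53 ± 11.4 kb in AstroEGFR (SD, n = 2), a difference of 17952 bp (exact permutation test, two-sided, p = 0.2). At Dlx3 and Dlx4 it was 28.6 ± 15.2 kb in PT (SD, n = 3) and 12.9 ± 14.8 kb in AstroEGFR (SD, n = 2), a difference of 15770 bp (exact permutation p = 0.3). At Dlx1 and Dlx2 it was 2.69 ± 2.28 kb in PT (SD, n = 3) against 0 in both AstroEGFR libraries, a difference of 2686 bp (exact permutation p = 0.2). Adjusted over the 3 pairs by the Benjamini-Hochberg method, p was 0.3 for each of these exact tests. With 10 possible splits the smallest p is 0.1, so no difference between stages could pass 0.05. At Dlx3 and Dlx4 the AstroEGFR libraries differed from each other by more than the group means did.

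The size of these differences depended on which AstroEGFR library was kept. Without AstroEGFR 3, the difference was 9875 bp at Dlx5 and Dlx6 and 5311 bp at Dlx3 and Dlx4, and without AstroEGFR 1 it was 26030 bp and 26230 bp. Leaving out PT 3 raised it to 24466 bp at Dlx3 and Dlx4, and leaving out PT 4 lowered it to 10487 bp there and to 1466 bp at Dlx1 and Dlx2. Among the lists with peaks on unplaced sequences, PT 1 and PT 4 exceeded AstroEGFR 1 by a mean of 13796 bp at Dlx5 and Dlx6, 14006 bp at Dlx3 and Dlx4 and 3728 bp at Dlx1 and Dlx2. Between the lists without such peaks, PT 3 exceeded AstroEGFR 3 by 18188, 8839 and 602 bp. The direction was the same in both sets, with a single AstroEGFR library in each and hence no replicate check.

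Since the lists differ in how much of the genome they cover, the covered share of each window was also divided by the covered share of the chromosomes in the same list. At Dlx5 and Dlx6 this ratio was 11.0 in AstroEGFR 1 and 13.2 in AstroEGFR 3, and the PT libraries 1, 3 and 4 had 11.0, 15.6 and 11.7. The groups overlapped and their means, 12.1 and 12.7, were close (difference 0.636, exact permutation p = 0.8). At Dlx3 and Dlx4 it was 25.7 in AstroEGFR 1 and 39.0 in AstroEGFR 3, above the 22.2, 15.8 and 25.5 of PT 1, PT 3 and PT 4, and the sign of the difference turned (-11.2, exact permutation p = 0.1, the smallest this design allows). A fully covered window would have a ratio of 30.1 in PT 1 and 31.2 in PT 4, so these libraries could not have reached AstroEGFR 3, and that part of the order was fixed by the scale. AstroEGFR 1 and PT 4 were nearly level on this scale, and the value of AstroEGFR 3 rests on 2 peaks. Of the 48 kb tiles with a peak in all 5 lists, 29.2% had both AstroEGFR libraries above every PT library in this ratio. At Dlx1 and Dlx2 the ratio was 1.75 in PT 1, 1.01 in PT 3 and 4.004 in PT 4, against 0 in AstroEGFR, so that PT 3 was there close to its average over the chromosomes. The ratio thus gave no difference beyond the spread of the libraries at Dlx5 and Dlx6. At Dlx3 and Dlx4 the scale did not fix the place of PT 3, whose 15.8 could have reached 67.3, nor that of PT 1 below AstroEGFR 1. With PT 4 level with AstroEGFR 1 and the rest of the order limited as above, a lower mark in PT was not established.

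The rank of the best peak within its own list gave a further comparison, taken from the score. It is not independent of width. At Dlx5 and Dlx6 and at Dlx3 and Dlx4, the widest peak of each library also had its best score, alone or in a tie. At Dlx5 and Dlx6 the best peak stood at percentile 93.5 in AstroEGFR 1 and 35.9 in AstroEGFR 3, and at 99.9, 98.9 and 99.9 in the PT libraries 1, 3 and 4. At Dlx3 and Dlx4 it stood at percentile 97.9 in AstroEGFR 1 and 91.8 in AstroEGFR 3, and at 99.9, 99.3 and 99.9 in the PT libraries 1, 3 and 4. A percentile is the share of the list with a score no higher, so the 99.9 of PT 1 and PT 4 is the upper end of the tie at 3100, and its lower end is 98.2 and 98.4. Groups did not overlap at either pair from either end of the tie, with differences of 34.8 and 4.85 percentile points (exact permutation p = 0.1 for each and after adjustment over both, the smallest possible). From the lower end they were 33.8 and 3.77 points, an alternative chosen after seeing the data. Of the tiles with a peak in all 5 lists, 43.3% of the 85 kb tiles and 41.9% of the 48 kb tiles showed the same order, so the order is common among such tiles. Without AstroEGFR 3 the differences were 6.04 and 1.82 points (4.95 and 0.729 from the lower end of the tie), and without AstroEGFR 1 they were 63.6 and 7.89. At Dlx1 and Dlx2 no AstroEGFR peak exists to rank. Percentiles depend on the length of a list, and when each list was cut to its top 3722 peaks the differences were 56.6 points at Dlx5 and Dlx6 (exact permutation p = 0.1) and 10.1 points at Dlx3 and Dlx4 (exact permutation p = 0.2). Dlx5 and Dlx6 then stood at percentile 40.9 in AstroEGFR 1 and 35.9 in AstroEGFR 3, and at 98.2, 88.0 and 98.7 in the PT libraries 1, 3 and 4. For Dlx3 and Dlx4 the percentile was 80.5 in AstroEGFR 1 and 91.8 in AstroEGFR 3. It was 98.2, 91.9 and 98.7 in PT 1, PT 3 and PT 4, so AstroEGFR 3 and PT 3 were nearly level there.

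The 3 pairs were then compared with each other inside each library, as a share of the window. Dlx3 and Dlx4 had the highest share, Dlx5 and Dlx6 the next and Dlx1 and Dlx2 the lowest in 5 of 5 libraries. Over the libraries the share averaged 46.5%, 23.9% and 4.03%. Dlx1 and Dlx2 lay 19.9 ± 10.9 percentage points below Dlx5 and Dlx6 (SD, n = 5) and 42.5 ± 28.3 below Dlx3 and Dlx4 (SD, n = 5; exact permutation test over sign changes, two-sided, p = 0.0625 for each). Dlx5 and Dlx6 lay 22.6 ± 19.9 points below Dlx3 and Dlx4 (SD, n = 5; exact permutation p = 0.0625). This is the smallest p that 5 libraries allow, and adjustment over the 3 comparisons left it at 0.0625.

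The low coverage of Dlx1 and Dlx2 held for each way of drawing the windows that was tried, while the order of the other pairs did not. In PT 3, Dlx5 and Dlx6 (23.1%) and Dlx3 and Dlx4 (23.4%) differed by 0.333 points only. In base pairs, the mean of Dlx5 and Dlx6 minus Dlx3 and Dlx4 was -2033 bp (exact permutation p = 0.5), and in PT 3 they had more. The 85 kb window of Dlx5 and Dlx6 includes the nearly empty upper part, and when each window was limited to its 30 kb with the highest mean covered share, a limit chosen after seeing the data, Dlx5 and Dlx6 exceeded Dlx3 and Dlx4 by a mean of 4.97 points (exact permutation p = 0.875). In that stretch Dlx3 and Dlx4 had 64.5% in AstroEGFR 1 and 8.04% in AstroEGFR 3, and 92.9%, 31.8% and 93.4% in PT 1, PT 3 and PT 4. Both pairs were thus within a few percentage points of each other in AstroEGFR 1, AstroEGFR 3, PT 1 and PT 4, and far apart in PT 3, where Dlx5 and Dlx6 reached 63.5%.

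Chromosome 11 as a whole was also more covered than chromosome 6 in each list. Divided by the covered share of its own chromosome, Dlx3 and Dlx4 had a ratio of 16.0 in AstroEGFR 1 and 17.4 in AstroEGFR 3, and of 11.3, 11.2 and 12.7 in the PT libraries 1, 3 and 4. For Dlx5 and Dlx6 the ratio was 10.5, 15.0, 9.24, 17.0 and 10.1 in the same order. On this scale Dlx3 and Dlx4 were higher in 4 libraries and lower in PT 3, and Dlx1 and Dlx2 had the lowest ratio in each, at most 3.92 in PT 4.

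**Figure D3:**
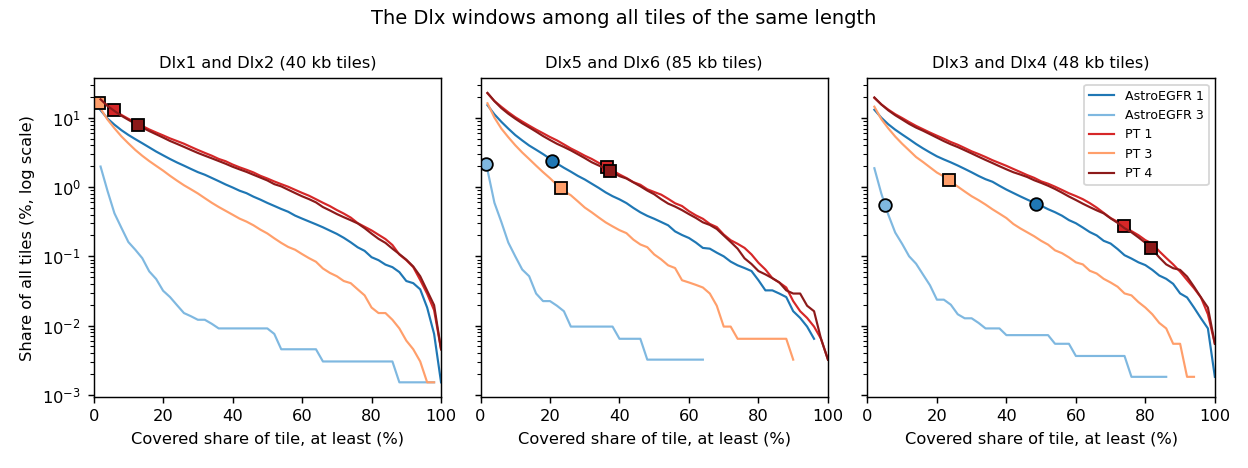
The Dlx windows among all tiles of the same length. For each library a line gives the share of tiles (y axis, percent, log scale) whose covered share is at least the value on the x axis (percent), and the symbols (circles AstroEGFR, squares PT) mark the Dlx window. The Dlx1 and Dlx2 symbols, absent for the AstroEGFR lists that have no peak there, lie at 7.82% to 16.6% of tiles, those of Dlx5 and Dlx6 at 0.975% to 2.39% and those of Dlx3 and Dlx4 at 0.133% to 1.25%.

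Against the rest of the genome, the Dlx3 and Dlx4 window was among the most covered. A covered share at least as high was found in 0.572% of the 54875 tiles of 48 kb in AstroEGFR 1 and in 0.545% in AstroEGFR 3. For the PT libraries 1, 3 and 4 the shares were 0.272%, 1.25% and 0.133%, the last being 73 tiles. For Dlx5 and Dlx6 the shares among 30985 tiles of 85 kb were 2.39% in AstroEGFR 1 and 2.16% in AstroEGFR 3, and 1.96%, 0.975% and 1.69% in PT 1, PT 3 and PT 4. Over all tiles, the PT 3 window thus ranked highest for Dlx5 and Dlx6 and lowest for Dlx3 and Dlx4. Among tiles with a peak in the same list, the shares for Dlx5 and Dlx6 were 10.6% in AstroEGFR 1 and 33.2% in AstroEGFR 3. They were 6.15%, 3.31% and 5.10% in PT 1, PT 3 and PT 4. For Dlx3 and Dlx4 they were 3.45%, 13.2%, 1.11%, 5.68% and 0.522% in the same order, so AstroEGFR 3 ranked lowest there. For Dlx1 and Dlx2, 12.9% of 65852 tiles of 40 kb were at least as covered in PT 1, 16.6% in PT 3 and 7.82% in PT 4. A peak of any kind was found in 22.5%, 19.9% and 23.4% of those tiles in PT 1, PT 3 and PT 4, and in 15.1% and 3.59% in AstroEGFR 1 and AstroEGFR 3, so a window without a peak is the usual case in the astrocyte lists. Among the tiles with a peak, the median covered share was 7.71% in PT 1, 3.64% in PT 3 and 6.82% in PT 4, and the Dlx1 and Dlx2 window was below it in PT 1 and PT 3 and above it in PT 4.

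**Figure D4:**
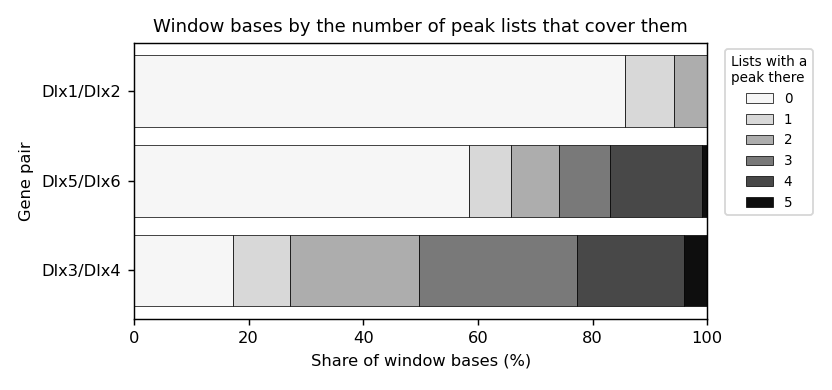
Bases of each window by the number of peak lists that cover them, as a share of the window (x axis, percent). Bases in 3 or more lists are absent at Dlx1 and Dlx2, where 85.7% of bases are in no list, and bases in 3 lists are the largest class at Dlx3 and Dlx4 (27.5%).

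The libraries were last compared base by base, to see whether astrocytes and tumours carried the mark in the same places. At Dlx5 and Dlx6, 0 bp were covered in an AstroEGFR list and in no PT list, and the same was true at Dlx3 and Dlx4. The share of such bases over the chromosomes was not computed. Of the AstroEGFR 1 bases at Dlx5 and Dlx6, 99.6% were covered in PT 1, 78.7% in PT 3 and 95.5% in PT 4. At Dlx3 and Dlx4 these shares were 100% in PT 1 and PT 4 after rounding and 46.3% in PT 3. Over chromosomes 1 to 19 and X, 67.6% of the AstroEGFR 1 bases were covered in PT 1, 27.3% in PT 3 and 65.4% in PT 4. The peaks of AstroEGFR 1 lay almost wholly inside those of PT 1 and PT 4 at both pairs, in windows of which PT 1 and PT 4 covered a large part, and whether this differs from other windows so covered was not tested. PT 1 and PT 4 resembled each other most, with a Jaccard index (bases in both lists divided by bases in either) of 0.810 at Dlx5 and Dlx6 and 0.881 at Dlx3 and Dlx4, against 0.506 over the chromosomes. AstroEGFR 1 had an index of 0.563, 0.592 and 0.517 with PT 1, PT 3 and PT 4 at Dlx5 and Dlx6, and of 0.657, 0.455 and 0.595 at Dlx3 and Dlx4. Over the chromosomes these indices were 0.325, 0.180 and 0.320. A Jaccard index tends to rise with the share covered, and both windows were covered far more than the chromosomes. Whether the window indices exceed those of other windows so covered was not tested.

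Bases covered in all PT and in no AstroEGFR list were also counted, and their share over the chromosomes was not computed. Their number cannot exceed the coverage of PT 3, which was 19639 bp at Dlx5 and Dlx6, 11250 bp at Dlx3 and Dlx4 and 602 bp at Dlx1 and Dlx2. These bases made up 4422 bp at Dlx5 and Dlx6, against 14362 bp covered in all PT lists and in an AstroEGFR list. The largest such stretches lay from 6828149 to 6829555 (1407 bp) and from 6824553 to 6825591 (1039 bp), both between AstroEGFR 1 peaks of the block. At Dlx3 and Dlx4 they made up 440 bp against 10810 bp, in 3 gaps of at most 171 bp, and at Dlx1 and Dlx2 0 bp. A larger part was in PT 1 and PT 4 and in no other list, 6287 bp at Dlx5 and Dlx6, 10873 bp at Dlx3 and Dlx4 and 2330 bp at Dlx1 and Dlx2. Of the bases in both PT 1 and PT 4 and outside AstroEGFR 1 peaks, 55.3% were absent from PT 3 at Dlx5 and Dlx6, 96.2% at Dlx3 and Dlx4 and 100% at Dlx1 and Dlx2, against 81.2% over the chromosomes. Depth and immunoprecipitation yield are unknown for each list, and their part in these differences was not tested.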

How the data were processed

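Peak lists of 5 H3K27me3 libraries were analysed (AstroEGFR n = 2, PT n = 3), grouped by the sample titles. The submitters' processing notes name Bowtie 0.12.9, MACS 1.4.1 and mm9. There was 1 deposited list per library, and the authors' files give the start, the end and a score of each peak. MACS of that version derives this score from a p-value. The lists themselves do not define it, so the score was used only to rank peaks within a list. The number of reads and the input used for each list are not given in the sources used here.

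Covered length is the number of window bases in peaks (0 peaks overlapped within a list). A percentile is the share of peaks of the same list with a score no higher. Tiles of the length of each window were laid end to end on chromosomes 1 to 19 and X, as far as peaks of any list reached. Gene order and promoters came from RefSeq tables of GRCm38.p6, whose positions were not compared with the peaks.

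Stages were compared by an exact permutation test over the 10 splits of 5 libraries, and pairs by an exact permutation test over 32 sign changes, both two-sided. The labels do not say that the libraries came from separate animals, so p-values measure the spread between these libraries. All 6 genes were named. As no mm9 annotation was given, the planned search for genes of similar pattern and the list of related genes were not run. The windows, tests and alternatives were chosen with earlier results of these data known, and those on the densest 30 kb and on tied scores were added after these values were seen. Python 3.11.15, pandas 2.3.3, numpy 2.4.6, scipy 1.17.1 and matplotlib 3.10.9 were used, and the coverage functions were tested on simulated data.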

Additional observations from a re-analysis of the deposited data

How the results depend on the processing

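Differences between stages in covered length and in best-peak percentile, and differences between pairs in covered share, kept their direction under each alternative run, with 2 exceptions. Relative to the coverage of the whole list, the difference of Dlx3 and Dlx4 turned to -11.2, on a scale that PT 1 and PT 4 could not raise above AstroEGFR 3. Within the 30 kb of highest mean coverage, chosen after seeing the values of the windows, Dlx5 and Dlx6 exceeded Dlx3 and Dlx4 by 4.97 points. No alternative brought a p below 0.05, which none of these designs can reach. Without each replicate in turn, the stage difference ranged from 1466 to 3728 bp at Dlx1 and Dlx2, from 9875 to 26030 bp at Dlx5 and Dlx6 and from 5311 to 26230 bp at Dlx3 and Dlx4. With libraries 1 and 3 paired by number (replicate block), it was 1466, 15817 and 10487 bp, and that in percentile 34.7 and 4.74 points at Dlx5 and Dlx6 and at Dlx3 and Dlx4. These are by construction the values without PT 4, and the labels do not say that a number marks a shared origin.

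With equal numbers of peaks (the strongest 3722 of each list), the stage difference at Dlx1 and Dlx2 was 1313 bp, all of it from PT 4. The share of tiles whose mean coverage over the 5 lists was at least that of the window was 12.1% for Dlx1 and Dlx2, 1.45% for Dlx5 and Dlx6 and 0.277% for Dlx3 and Dlx4. Counted over tiles with a peak in at least 1 list only, it was 37.1%, 3.34% and 0.794%. The percentile comparison gave no value at Dlx1 and Dlx2, nor at Dlx5 and Dlx6 with the upper 50% of scores, scores of at least 100 or peaks of at least 1000 bp, because AstroEGFR 3 then had no peak there. Since read depth is unknown, the short list of AstroEGFR 3 limits each statement that rests on a missing peak.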
